A study of Mus musculus with 2 samples.

Results

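Interferon-high B cells are the colonic B cells that carried transcripts of an interferon programme in these libraries. A cell was taken when it held at least 3 unique molecular identifiers (UMIs, one per captured transcript) of Serpina3g, Serpina3f, Tgtp1, Tgtp2, Ifi47, Igtp, Irgm1, Gbp2, Gbp7 and Zbp1 together, from at least 2 of these 10 genes, and when under 20% of its UMIs came from immunoglobulin genes and Jchain. The rule found 356 of 7982 cells, 15 of 3290 at day 0 and 341 of 4692 at day 14. Flow-sorted B cells of the colonic lamina propria came from female C57BL/6J mice and were sequenced with the 10x Chromium 3′ kit, version 2. The day 0 mice were untreated. The day 14 mice had drunk 2% dextran sulfate sodium (DSS), which injures the colonic epithelium, for 7 days and had then recovered for 7 days. The treatment tag names DSS on each sample, so day 0 is called untreated from the protocol and the design text. There was 1 library per day and no replicate. How many mice went into a library is unknown here, and day and library cannot be told apart.

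Interferons are cytokines that signal through receptors on the cell surface to Janus kinases and STAT transcription factors. Interferon-gamma mainly leads to STAT dimers that bind gamma-activated sites (GAS). Type I interferons also lead to a complex of STAT proteins with IRF9 that binds interferon-stimulated response elements (ISRE), and many target genes carry both kinds of site. Their products include GTPases that attack vacuoles of intracellular microbes, nucleic acid sensors and the machinery that displays peptides on MHC class I. In B cells, interferon-gamma is also known for effects on activation and class switching.

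The 10 genes fall into known families. Igtp, Irgm1, Ifi47, Tgtp1 and Tgtp2 encode immunity-related GTPases, Gbp2 and Gbp7 encode guanylate-binding proteins, Serpina3g and Serpina3f encode serine protease inhibitors, and Zbp1 encodes a sensor of Z-form nucleic acid. RefSeq promoter windows were present for 9 of the 10 genes on build GRCm38.p6, and were read here over the 250 bases upstream of each start. The window of Zbp1 is not shown. The stretches below are printed because they hold the interferon motif letters of the genes that chose the cells. Each starts up to 20 bases before the first motif match and is written 5′ to 3′ on the gene's strand. Capitals mark matches to the GAS letters TTCNNNGAA or, on either strand, the ISRE-like letters GAAA, any 2 bases and GAAA.

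Tgtp1: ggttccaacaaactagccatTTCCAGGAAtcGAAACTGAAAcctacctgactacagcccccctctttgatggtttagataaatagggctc

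Tgtp2: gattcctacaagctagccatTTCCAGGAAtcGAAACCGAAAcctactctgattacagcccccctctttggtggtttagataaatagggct

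Igtp: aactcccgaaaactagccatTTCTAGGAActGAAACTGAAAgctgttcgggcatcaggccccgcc

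Irgm1: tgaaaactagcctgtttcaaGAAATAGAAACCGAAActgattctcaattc

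Gbp7: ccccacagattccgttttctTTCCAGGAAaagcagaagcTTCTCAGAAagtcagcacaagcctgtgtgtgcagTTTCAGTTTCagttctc

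Gbp2: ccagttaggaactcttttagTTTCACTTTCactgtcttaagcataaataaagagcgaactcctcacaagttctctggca

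Serpina3g: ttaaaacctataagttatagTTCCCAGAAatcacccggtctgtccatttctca

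Serpina3f: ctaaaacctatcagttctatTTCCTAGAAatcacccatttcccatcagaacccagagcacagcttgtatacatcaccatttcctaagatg

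These stretches lie at chr11:48992265-48992354 (minus strand) for Tgtp1, chr11:49064224-49064313 (minus) for Tgtp2, chr11:58199491-58199555 (plus) for Igtp and chr11:48871421-48871470 (minus) for Irgm1. The others lie at chr3:142530210-142530299 (plus) for Gbp7, chr3:142620584-142620662 (plus) for Gbp2, chr12:104236094-104236146 (plus) for Serpina3g and chr12:104214403-104214492 (plus) for Serpina3f. In Tgtp1, Tgtp2 and Igtp a GAS match is followed after 2 bases by an ISRE-like match. Aligned at the GAS match, Serpina3g and Serpina3f shared 33 of 53 bases. The first transcribed bases of the Serpina3g entry matched no transcript start of the GENCODE annotation, so its start, and the distance of the motif from it, may differ between annotations. The starts of Tgtp1 and Serpina3f were not checked in this way. Among the 9 rule genes with a window, 6 held a GAS match, 6 an ISRE-like match and 8 at least 1 of them. Counted by gene in the same way, 8.13% of all 27025 genes with a window held a GAS match, 3.46% an ISRE-like match and 11.1% at least 1 of them. Counted by window, the shares over all 32851 windows were 7.02% and 2.98%. The motifs were searched after the genes were known, and a match says only that the letters are present.

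The share of interferon-high cells, among cells under the immunoglobulin limit, was 0.459% at day 0 (15 of 3266, exact 95% interval 0.257% to 0.756%) and 7.31% at day 14 (341 of 4665, 6.58% to 8.09%). This difference was known when the cells were chosen and is given as a description. The intervals here and below cover counting error only. The 15 day 0 cells were deep, with a median of 5012 UMIs against 2245.5 in day 0 cells without rule-gene UMIs, while the day 14 cells had 2537 against 2152.5. With every cell thinned to 1000 UMIs, the shares were 0.0928% and 2.07%. Cells with no UMI of the 10 genes made up 87.6% at day 0 and 70.01% at day 14. The libraries shared 17 barcodes among their cells, none of them in interferon-high cells.

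Serpina3g was the most often detected of the 10 genes at day 14, in 235 of 341 cells (68.9%), followed by Zbp1 in 53.1%, Ifi47 in 41.9% and Tgtp2 in 37.0%. Tgtp1 was the least often detected, in 10.0%. At day 0, Serpina3g was present in 9 of 15 cells and Gbp2 in 8 of 15. Reads of Serpina3g and Serpina3f, and of Tgtp1 and Tgtp2, may not be separable in a 3′ assay, so the split within each pair is uncertain. A day 14 cell held a median of 4 rule-gene UMIs from 3 genes, and at most 24 UMIs from all 10 genes. Of the 341 cells, 114 held exactly 3 UMIs, while 262 cells held 2 UMIs and 22 held 3 or more UMIs of 1 gene and were left out.

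**Figure D1:**
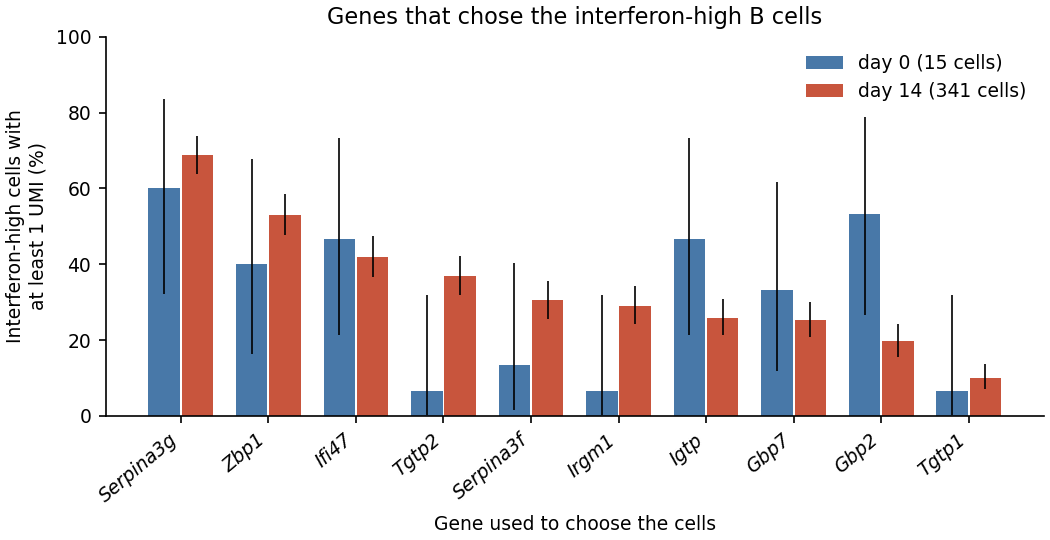
Share of interferon-high cells with at least 1 UMI (%) of each gene used to choose them, at day 0 (15 cells) and day 14 (341 cells); bars are shares and lines exact 95% intervals. Serpina3g leads on both days, and the wide day 0 lines show how few cells stand behind them.

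The label was checked against B cell markers. All 333 depth-matched interferon-high cells at day 14 held at least 5 UMIs of Cd79a, Cd79b, Ms4a1 (CD20), Cd74 and H2-Aa together. So did all 660 comparison cells, all 12 depth-matched interferon-high cells at day 0 and their 23 comparison cells. Cd74 alone gave 25219 of the 34749 UMIs of this set in the 333 cells. A joint minimum of 5 UMIs could therefore hardly fail, and it says little about the label. Cd79a, a signalling chain of the B cell receptor, was at 2127 counts per 1000000 UMIs (CPM) in interferon-high and 2158 CPM in comparison cells. Ms4a1 was at 754 and 764 CPM. Taken singly, Cd79a had UMIs in 328 of 333 and 649 of 660 cells, and Ms4a1 in 266 and 528. T cell receptor and CD3 genes gave 1 UMI each in 3 of 333 and 2 of 660 cells, and the macrophage genes Lyz2, C1qa, C1qb, C1qc, Csf1r and Adgre1 gave none in either. Over the whole myeloid list, 12 of 17 members were at 0 on both sides, and the summed level was 801 against 909 CPM, mostly Apoe and Cst3. The epithelial and stromal list went the other way, at 84.4 against 52.9 CPM (1.595, 1.17 to 2.16). Pecam1 gave 57 of its 81 and 71 of its 98 UMIs (1.55, 1.07 to 2.23). Epcam had 13 against 14 UMIs (1.79, 0.78 to 4.11), with 7 of the 13 in 1 cell. The marker sets and minimum UMIs of this check were chosen after values were seen.

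All other genes were compared with cells of the same library that held no UMI of the 10 genes and had similar total UMIs. Each interferon-high cell took up to 2 such cells within 10% of its own total. At day 14 this set 333 interferon-high cells (median 2521 UMIs, 930 genes) beside 660 comparison cells (median 2513.5 UMIs, 926 genes). Mitochondrial UMIs had a median of 3.24% and 3.41%. Both sides were chosen by their rule-gene UMIs, at the ends of the range, so the ratios describe those ends. Levels are CPM of UMIs outside immunoglobulin, mitochondrial and rule genes, and with 1 library there is no test.

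At day 14, 1547 genes reached 200 UMIs over both sides. In interferon-high cells 37 of them (2.39%) stood 1.5-fold or more above the comparison cells, and 15 (0.97%) stood 1.5-fold or more below. The median gene stood at a log2 ratio of -0.01. Of the 37 genes, 9 belong to the interferon lists, 8 to the MHC class I list and 17 to no list used here. The share of these lists among all 1547 genes is not given here, so the memberships only describe the 37. The count of higher genes was 8 when cells with any UMI of other cell types' list genes were left out. It was 2 when cells were thinned to 1000 UMIs, where fewer genes reach 200 UMIs. The first of these settings leaves out most cells, since 61.3% of interferon-high and 67.3% of comparison cells held a UMI of the myeloid list.

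**Figure D2:**
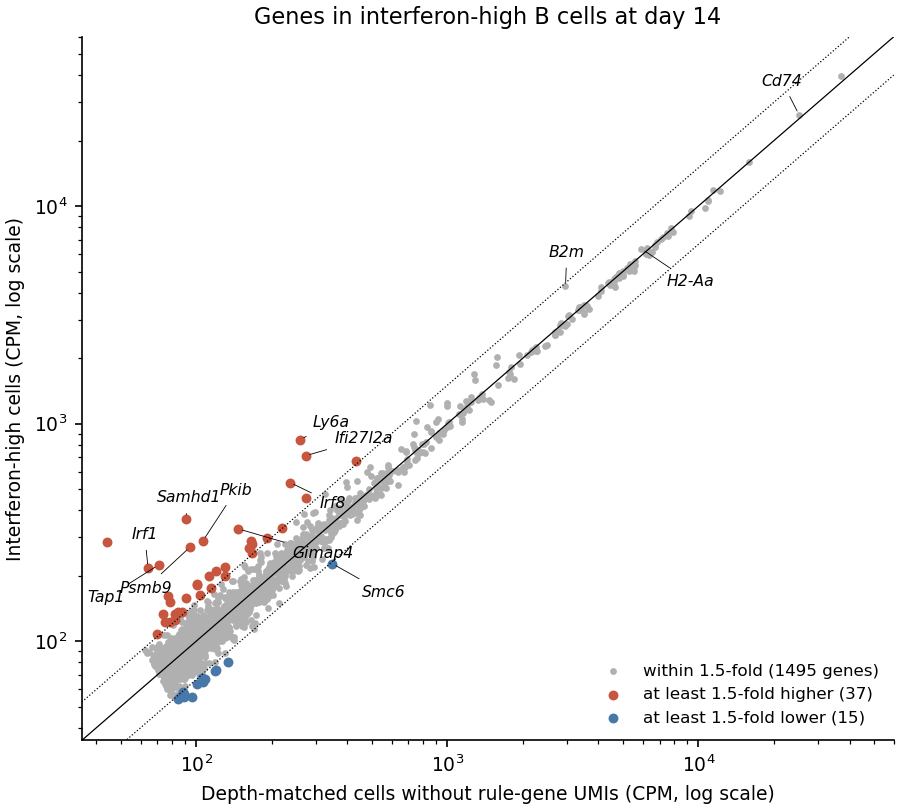
Level of each counted gene in interferon-high cells (vertical, CPM) against depth-matched cells without rule-gene UMIs (horizontal, CPM) at day 14, both on log scales; the solid line is equality and the dotted lines 1.5-fold. Samhd1, Irf1 and Ly6a lie well above the line, while Cd74 and H2-Aa lie close to it.

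Irf1, Irf8 and Irf9 encode interferon regulatory factors. Irf1, which activates many later interferon genes, was at 216.7 against 64.3 CPM (ratio 3.37, 95% interval 2.68 to 4.26). It lies at chr11:53770014-53778374 (plus strand, GENCODE annotation of mm10) and was detected in 39.0% of interferon-high and 14.1% of comparison cells. Irf8, which controls B cell and myeloid differentiation, was at 536 against 236.5 CPM (2.26, 1.99 to 2.58). Irf9, the DNA-binding part of the type I complex, was at 96.9 against 28.6 CPM (3.39, 2.39 to 4.84). Each of these was higher beyond counting error.

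Effectors came next. Samhd1, which degrades the nucleotides that viruses need for reverse transcription, was at 365 against 90.7 CPM (ratio 4.02, 3.34 to 4.86). Ly6a encodes Sca-1, a surface protein induced by interferons on lymphocytes, and was at 843 against 259 CPM (3.25, 2.90 to 3.65). Ifi27l2a, an interferon-inducible gene, was at 712 against 273 CPM (2.61, 2.32 to 2.93). Of the pyrin and HIN domain family, which includes sensors of DNA, Ifi203 had a ratio of 2.09 and Ifi209 of 1.92. Genes outside the textbook programme were also among the 12 highest: Pkib, an inhibitor of protein kinase A, had a ratio of 2.72 (2.26 to 3.29), and Gimap4, a GTPase of lymphocytes, had 2.23 (1.89 to 2.64). The Gimap genes form a cluster on chromosome 6, of which 7 more were named after their values were seen. Gimap7 stood at 2.27, Gimap9 at 2.08, Gimap5 at 1.62, Gimap6 at 1.56, Gimap3 at 1.505, Gimap8 at 1.34 and Gimap1 at 1.16.

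Of the interferon-gamma-associated list, 38 genes were in the files and 25 reached 20 UMIs. Among these, 19 were at least 1.5-fold higher and 1 was lower, with a median log2 ratio of 1.18. Over all 6944 genes with 20 UMIs, 7.32% were higher and 10.1% lower, with a median of -0.03. Summed over all members, the list stood at 3678 against 1701 CPM, a ratio of 2.16 (2.06 to 2.27). Members that are rare elsewhere reach the UMI minimum only through the cells where they are high, so the counts describe these members and no others.

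Within that list, the guanylate-binding protein genes Gbp4 and Gbp5 had 90 against 11 UMIs and 29 against 2 UMIs, ratios of 15.8 (8.42 to 32.8) and 28.0 (7.08 to 242). Socs1, which feeds back on Janus kinases, had 44 against 5 UMIs (17.0, 6.75 to 54.9). Iigp1, another immunity-related GTPase, had 20 UMIs against 0. Its ratio was 12.9 with the comparison cells set to 3 counts, and the lower bound of its interval was 9.53. Cd274, which encodes the inhibitory ligand PD-L1, had 113 against 79 UMIs (2.76). Nlrc5, the transactivator of MHC class I genes, had 18 against 7 UMIs (4.96, 1.98 to 14.1). Ciita, the corresponding transactivator for MHC class II, was the 1 lower member, at 37.5 against 58.9 CPM (0.64, 0.42 to 0.94). Chemokine genes gave little: Cxcl9 had no UMI on either side and Cxcl10 had 3 against 1. Tbx21 (T-bet), a factor of interferon-gamma-driven B cells, had no UMI on either side, so its level was not detectable at this depth.

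Of the type I list, 35 of 68 genes in the files reached 20 UMIs. Of these, 23 were higher and 0 lower, beside 7.32% and 10.1% over all 6944 genes, with a median log2 ratio of 0.98. Summed, the list stood at 3320 against 1769 CPM (1.88, 1.79 to 1.97). Beside Irf9, the highest included Trim30d (3.86), Xaf1 (3.58), Ifi213 (3.38) and Slfn8 (3.34), each with at most 42 UMIs on the interferon-high side. Isg15, a ubiquitin-like modifier, had 23 against 19 UMIs (2.34, 1.22 to 4.54). The antiviral gene Ifit3 had 11 UMIs in 4 cells against 3 UMIs. Many classic type I genes, such as Mx1, Rsad2, Oas2 and Ifit1, did not reach 20 UMIs over both sides. Interferon-gamma and type I programmes overlap in most of these genes, and the lists do not tell which cytokine the cells had met.

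**Figure D3:**
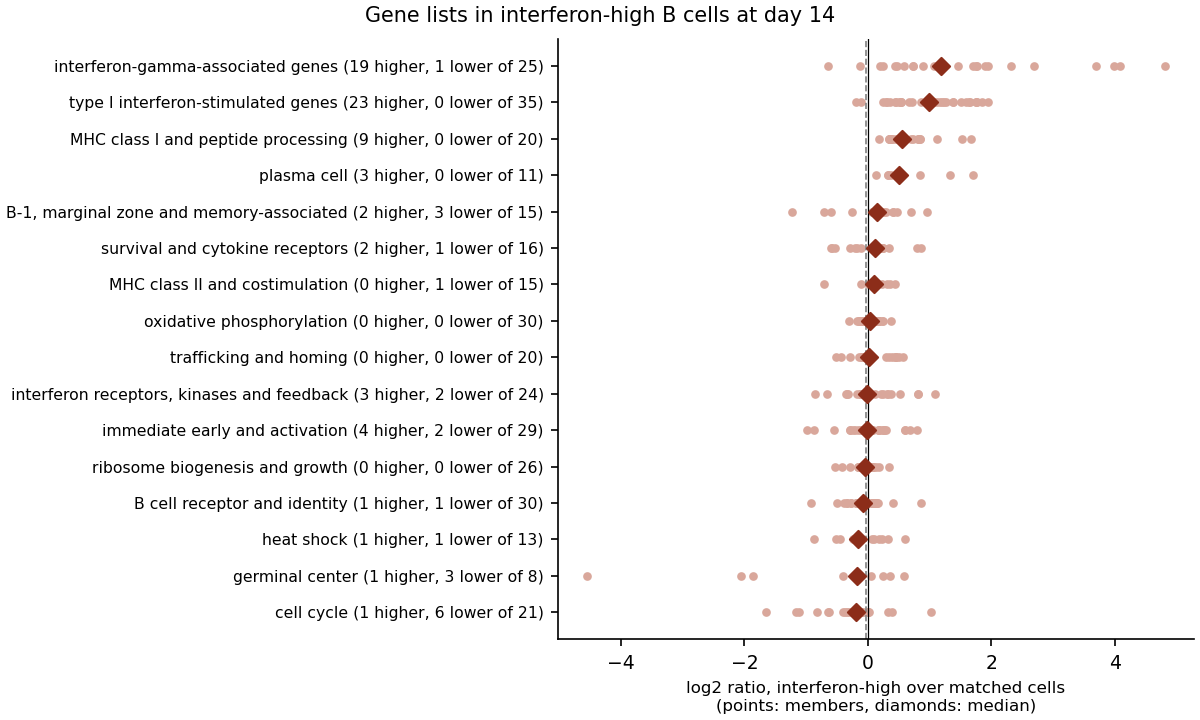
Gene lists with at least 8 members at 20 or more UMIs at day 14; each point is a member's log2 ratio, diamonds are list medians, the dashed line is the median of all genes, and members at 0 UMIs on 1 side stand at the 3-count bound. The 2 interferon lists and MHC class I lie above the other lists, and the list of MHC class II and costimulation lies near 0.

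Genes of peptide presentation on MHC class I were partly higher. Among 20 measured genes of the list, 9 were higher by the 1.5-fold criterion, 11 lay within it and 0 were lower. The shares over all 6944 genes with 20 UMIs were 7.32% higher and 10.1% lower. The list had a median log2 ratio of 0.55 and a summed ratio of 1.44 (1.41 to 1.48). Tap1, a subunit of the transporter that loads peptides into the endoplasmic reticulum, was at 224 against 70.7 CPM (3.17, 2.54 to 3.97). Psmb9, a catalytic subunit of the immunoproteasome, was at 271 against 94.5 CPM (2.87, 2.36 to 3.49). The other immunoproteasome subunits stood at 1.80 for Psmb10 and 1.32 for Psmb8. The loading chaperone genes Tapbp and Tapbpl stood at 1.76 and 2.17. B2m, the shared light chain, was at 4297 against 2956 CPM (1.45, 1.40 to 1.51), and was present in 333 of 333 and 655 of 660 cells. The classical heavy chain genes H2-K1 and H2-D1 stood at 1.37 and 1.29, while the non-classical H2-T23 stood at 1.80.

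Genes of MHC class II, which presents antigen to helper T cells, shared a list with costimulatory genes. Of its 15 measured members, 0 were 1.5-fold higher and 1 was lower, and the summed ratio was 1.05 (1.04 to 1.06). With 7.32% higher and 10.1% lower over all 6944 genes with 20 UMIs, these counts do not set the list apart. The 1 lower member was Pdcd1lg2, which encodes the inhibitory ligand PD-L2, with 18 against 57 UMIs (0.61, 0.34 to 1.05). Cd74, the invariant chain, was at 26277 against 25167 CPM (1.04, 1.03 to 1.06), and H2-Aa at 6365 against 5930 CPM (1.07, 1.04 to 1.11). Both are already among the most abundant transcripts of B cells.

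Receptors for interferon were close to equal. Ifngr1 had a ratio of 0.92 (0.71 to 1.18), Ifngr2 of 0.92 (0.73 to 1.16), Ifnar1 of 1.01 (0.76 to 1.32) and Jak1 of 0.93 (0.75 to 1.14). Of 24 measured receptor, kinase and feedback genes, 3 were higher and 2 lower. Over all 6944 genes with 20 UMIs, 7.32% were higher and 10.1% lower, so these counts do not set the list apart. The higher were Socs3 (2.13, 1.34 to 3.40), Ptpn1 (1.76, 1.44 to 2.16) and Jak2 (1.75, 1.20 to 2.53). The lower were the phosphatase gene Ptpn2 (0.63, 0.40 to 0.97) and the kinase gene Tyk2, with 6 against 21 UMIs (0.55, 0.18 to 1.41).

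The cells resembled their comparison cells in B cell identity. Of 30 measured genes of the B cell receptor and identity list, 28 lay within 1.5-fold, with a summed ratio of 0.95 (0.93 to 0.98). Of cells whose heavy chain class could be read, 242 of 252 interferon-high cells (96.0%, 92.8% to 98.1%) and 493 of 504 comparison cells (97.8%, 96.1% to 98.9%) were of the IgM and IgD class. IgA was read in 6 cells (2.38%, 0.88% to 5.11%) and 3 cells (0.60%, 0.12% to 1.73%). IgG was read in 4 and 8 cells (1.59% on each side). Igha had 546 against 131 UMIs, but 440 of the 546 came from 1 cell, and without the 3 highest cells on each side it had 83 against 105. Jchain likewise had 353 UMIs, 302 of them in 1 cell. Without the 3 highest cells on each side it had 16 against 77. These are raw UMIs, and the comparison side had the larger total for scaling, 1852094 against 959755 UMIs. Per UMI, the remaining Igha level stayed above that of comparison cells and the remaining Jchain level below.

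Cell states other than interferon response gave mixed values. Their counts stand beside 7.32% higher and 10.1% lower over all 6944 genes with 20 UMIs. Of 8 measured germinal center genes, 1 was higher and 3 lower, with a summed ratio of 0.83 (0.69 to 0.98) that ranged from 0.67 to 1.38 over the alternative settings. Lmo2, the most abundant member, had 108 against 175 UMIs (1.19, 0.93 to 1.52), Fas, the 1 higher member, had 14 against 18 UMIs with an interval of the ratio of 0.69 to 3.19, and Bcl6 stood at 1.29 (0.52 to 3.06). Rgs13 had 1 against 45 UMIs and Mef2b 3 against 24. At least 1 UMI of Rgs13 or Mef2b was found in 4 of 333 interferon-high cells (1.20%) and 22 of 660 comparison cells (3.33%). Of 21 measured cell cycle genes, 1 was higher and 6 lower, with a summed ratio of 0.91 (0.86 to 0.96). Pclaf, a replication factor, had 14 against 85 UMIs, with 40 of the 85 in 1 cell, and the summed cell cycle ratio ranged from 0.74 to 1.30 over the alternative settings. Plasma cell genes had 3 of 11 members higher and a summed ratio of 1.40 (1.31 to 1.49), but 1 cell held 99 of the 206 UMIs of 6 plasma markers. Without plasma-like and germinal center-like cells, an alternative chosen after seeing the data, the plasma ratio was 1.065, and 35 genes were higher and 11 lower. Mcl1, a survival factor, was at 182 against 100 CPM (1.82, 1.47 to 2.24).

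Several of the 15 lower genes were less secure than the highest genes. The strongest lower gene by its interval was Smc6, a chromosome maintenance gene, at 227 against 348 CPM (0.65, 0.56 to 0.76). Hprt, a purine salvage enzyme, followed at 80.2 against 133 CPM (0.60, 0.46 to 0.78). The number of lower genes ranged from 0 to 1519 over the alternative settings, and the number of higher genes from 2 to 1557. Some settings also change how many genes are counted, so these ranges do not set the lower genes apart. Tceal9, Kdm5a, Elavl1 and Myh9 turned to ratios above 1 when all cells were thinned to 1000 UMIs. Among the highest genes followed over the settings, the lowest ratio was 1.24, for Ifi209.

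Levels followed the number of rule-gene UMIs also below and above the threshold. The classes of 3 or more UMIs include the 22 cells left out for holding UMIs of 1 gene only. At day 14, Irf1 was at 63.3 CPM in 3266 cells with 0 rule-gene UMIs, at 93.2 CPM with 1, at 135.5 CPM with 2, at 152 CPM with 3 to 4, at 229 CPM with 5 to 7 and at 280.0 CPM in 51 cells with 8 or more. The interferon-gamma-associated list was at 1653, 1948, 2417, 3036, 3824 and 4667 CPM over the same classes. Samhd1 was at 103 CPM in the first and 577 CPM in the last class, while Cd74 was at 27714 and 22897 CPM. Just inside the threshold, the 114 cells with 3 UMIs had Irf1 at 165 CPM and the list at 3107 CPM, and just outside, the 262 cells with 2 UMIs had 135.5 and 2417 CPM. Median UMIs per cell were 2152.5 in the first class and 2762 in the last.

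**Figure D4:**
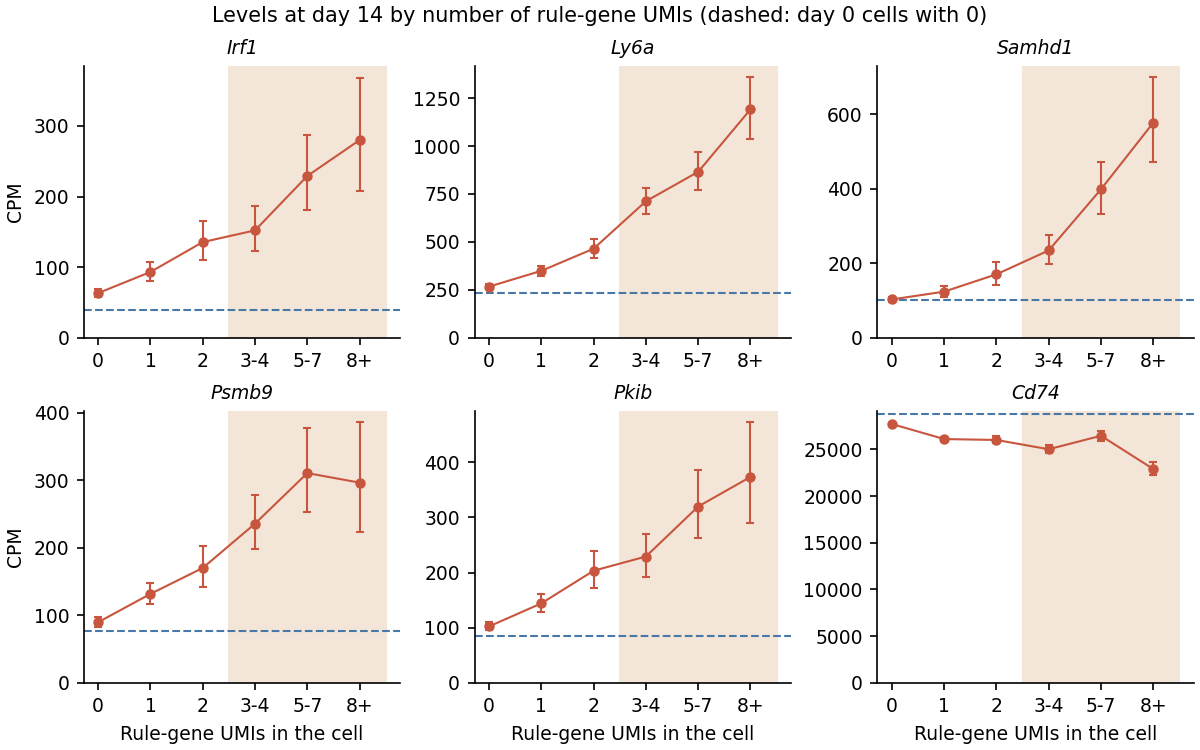
Levels of 6 genes (CPM) at day 14 in cells with 0, 1, 2, 3 to 4, 5 to 7 and 8 or more rule-gene UMIs, with exact 95% Poisson intervals; shading marks the classes at or above the UMI threshold, which include 22 cells with 3 or more UMIs of 1 gene that are not interferon-high, and the dashed line the day 0 cells with 0. Irf1 goes from 63.3 to 280.0 CPM over the classes, while Cd74 goes from 27714 to 22897 CPM.

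Levels within the interferon-high cells are given as a description, since the rule's own genes split them. They were set side by side between cells with and without each of the 10 rule genes, for 6 items each, so 60 ratios were viewed and the ones given here were picked after their values were seen. Cells with a rule gene also held more rule-gene UMIs, a median of 5 against 4 for both Zbp1 and Serpina3f, and the part of this in the ratios was not tested. Cells with Zbp1 UMIs (181) had Ifi27l2a at 838 CPM, against 499 CPM in the 160 without (1.68, 1.43 to 1.97). The type I list stood at 1.21 (1.13 to 1.30) between these cells, and the interferon-gamma-associated list at 1.05 (0.99 to 1.12). Cells with Serpina3f UMIs (104) had the interferon-gamma-associated list at 4208 CPM, against 3354 CPM in the 237 without (1.25, 1.17 to 1.34). These ratios are not particular to the 2 genes. The type I list stood at 1.19 for Tgtp1, 1.17 for Tgtp2 and 0.93 for Irgm1. The interferon-gamma-associated list stood at 1.30 for Tgtp1 and 0.98 for Serpina3g. A cell without a given gene had to pass the rule through the others, so the choice of cells also shapes the ratios. In cells at or below the median depth and above it, the Samhd1 ratio to comparison cells was 4.65 and 3.61.

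At day 0, only 12 of the 15 cells found comparison cells, 23 in all. None of the 110 genes with 200 UMIs was 1.5-fold higher or lower (0.0% in each direction). At 20 UMIs, 13.7% of 842 genes were higher and 17.2% lower. How much of this comes from the small number of cells was not tested. The summed ratio of the interferon-gamma-associated list was 2.00 (1.59 to 2.52), of the type I list 1.90 (1.51 to 2.40) and of the MHC class I list 1.33 (1.18 to 1.51). Ly6a had 34 against 18 UMIs (3.41, 1.88 to 6.42), with 13 and 11 of the 34 in 2 cells. Irf1 had 9 against 2 UMIs and Tap1 11 against 4. Of the 37 genes that were higher at day 14, 25 had a ratio above 1 at day 0 and 12 below, with a summed ratio of 1.59 (1.38 to 1.82). Their median log2 ratio at day 0 was 0.66, at a minimum of 5 UMIs. Over the 842 genes it was -0.03, at the higher minimum of 20 UMIs, so the 2 medians are not strictly alike. The share of all genes above 1 at day 0 is not given here. Of the 15 genes that were lower at day 14, 8 stood above 1 at day 0 and 7 below, with a summed ratio of 0.78 (0.59 to 1.02). Without cells holding any UMI of genes of other cell types, the day 0 ratio of the interferon-gamma-associated list was 0.74, so the day 0 list values rest on few cells. That setting leaves out most cells, since 83.3% of the 12 interferon-high and 100% of the 23 comparison cells held a UMI of the myeloid list.

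**Figure D5:**
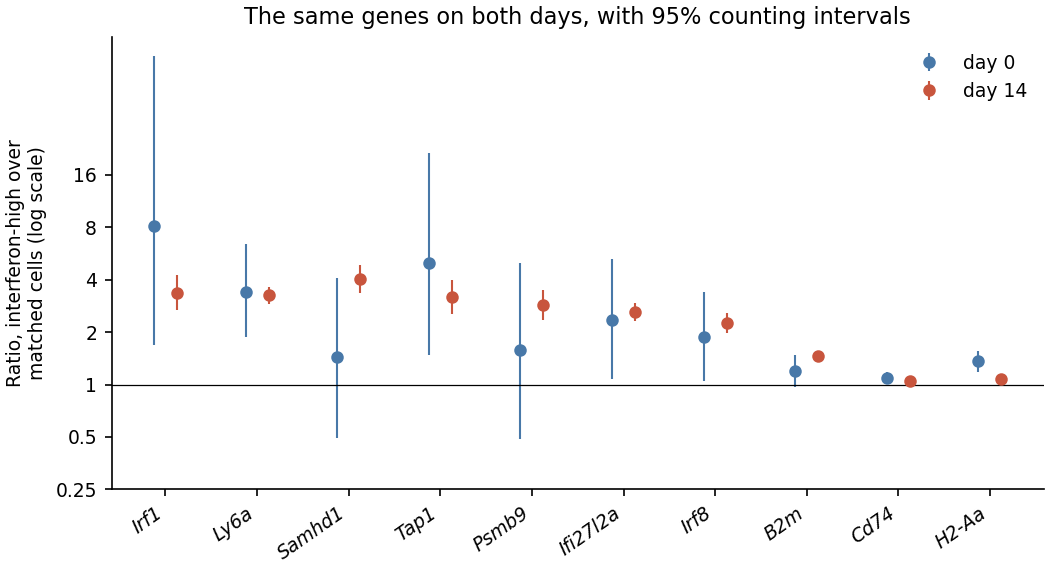
Ratio of interferon-high over depth-matched cells (log scale) for 10 genes at day 0 (12 against 23 cells) and day 14 (333 against 660 cells); points are ratios and lines 95% counting intervals. The day 0 intervals include the day 14 point except for H2-Aa, and Cd74 lies near 1 on both days.

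Between days, the interferon-high cells had 3588 CPM of the interferon-gamma-associated list at day 14 and 3198 CPM at day 0, a ratio of 1.12 (0.99 to 1.27). For type I genes the ratio was 1.18 (1.04 to 1.36). These ratios were 1.42 and 1.501 with TMM factors and 1.496 and 0.67 without cells of high UMI number, so the direction of the type I ratio turned. Of the 275 day 0 UMIs of the interferon-gamma-associated list, 165 came from the 12 depth-matched cells. Among the 3 others was 1 cell with 702 Igha and 14 Xbp1 UMIs but 1 Cd79a UMI, which also held 26 Ly6a UMIs. In depth-matched cells alone, the interferon-gamma-associated list was at 3678 CPM at day 14 and 3402 CPM at day 0, and the type I list at 3320 and 3257 CPM. In cells with no rule-gene UMIs, Irf1 was at 63.3 CPM at day 14 and 39.7 CPM at day 0 (1.59, 1.37 to 1.86). Samhd1 stood at 103 and 101 CPM in those cells.

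The same letters were searched upstream of the higher genes. Of the 29 higher genes with a window, 6 held a GAS match (20.7%) and 4 an ISRE-like match (13.8%). Of 10 lower genes with a window, 3 held a GAS match and 0 an ISRE-like match. The stretches of Irf1 and Samhd1, among the highest genes with a match, are shown with the GAS letters in capitals, at chr11:53769904-53769993 (plus) and chr2:157135262-157135346 (minus).

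Irf1: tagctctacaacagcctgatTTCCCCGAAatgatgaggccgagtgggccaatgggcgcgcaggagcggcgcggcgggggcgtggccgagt

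Samhd1: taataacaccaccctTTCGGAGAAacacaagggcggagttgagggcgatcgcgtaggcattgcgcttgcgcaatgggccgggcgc

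Of the 1191 other counted genes with a window, 6.72% held a GAS match and 3.44% an ISRE-like match. Ly6a and Ifi27l2a are among the higher genes not shown.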

How the data were processed

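Single-cell RNA sequencing of sorted colonic B cells was read from 2 libraries, 1 per day. The authors deposited raw UMI counts for every barcode. Per the file headers these come from Cell Ranger 3.0.1, and the submitters' processing notes name mm10 and Seurat 3.0. For alignment and cell calling, settings were not given in the sources used here. A second deposited table per library is on a natural log scale: each count was scaled to 10000 per cell, 1 was added and the log taken. In a sample of the genes, 0 of 2697800 day 0 and 0 of 3847440 day 14 values differed from the counts by more than 0.001. These tables leave out 86 of 3376 and 88 of 4780 barcodes by a filter that is not stated, and served to define the cells.

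Cells were chosen by UMIs of 10 genes, so no value of those genes is a finding. The members and gene lists were chosen with earlier results of these data known. Each interferon-high cell, deepest first, took the 2 nearest unused cells with 0 rule-gene UMIs within 10% of its total UMIs, and 3 cells at day 0 and 8 at day 14 found none. Library depth was 8690102 UMIs at day 0 and 12317052 at day 14. Raw counts were summed and divided by UMIs outside immunoglobulin, mitochondrial and rule genes. Ratios have exact conditional 95% intervals, sums exact Poisson and shares exact Clopper-Pearson intervals, all for counting error only. With 1 library per day there was no test. Genes were counted at 200 UMIs and list members at 20 UMIs over both sides, at 1.5-fold, with a floor of 3 counts per side. No doublets were removed, and cells of high UMI number were left out in an alternative. Heavy chain class needed 3 UMIs with over 50% from 1 class.

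Named genes were 12 genes by the highest lower bound of the day 14 ratio, 12 by the lowest upper bound, the up to 6 most different members and the most abundant member of each list, and the rule genes; further genes were chosen after their values were seen. Python 3.11.15 (NumPy 2.4.6, SciPy 1.17.1, pandas 2.3.3) was used, with edgeR 4.0.16 in R 4.3.3 for TMM factors only. Scripts for ratios were tested on simulated data. Promoter letters come from RefSeq on GRCm38.p6. Some genes are not reported here.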

Additional observations from a re-analysis of the deposited data

Results flagged for a closer look

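Barcodes that the log-normalized tables leave out were not used above. Of these, 11 of 88 at day 14 (12.5%, exact 95% interval 6.41% to 21.3%) and 8 of 86 at day 0 (9.30%, 4.10% to 17.5%) passed the threshold on the 10 genes. T cell receptor or CD3 UMIs were present in 9 of the 11 and in 8 of the 8.

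Jchain, which joins immunoglobulin multimers, was lower in interferon-high than in matched cells at day 0 (ratio 0.21, 4 against 34 UMIs) and higher at day 14 (5.01, 353 against 136 UMIs). The day 14 value rests on 1 cell with 302 UMIs, and without the 3 highest cells on each side there were 16 against 77 UMIs, so the direction turned. At day 0 the 4 interferon-high UMIs lie in 1 cell, and the 34 of matched cells in 9 of 23 cells. The summed ratio of the myeloid list was 1.65 at day 0 and 0.88 at day 14. The intervals of both pairs do not overlap, and the difference between days was not tested.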

How the results depend on the processing

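Over 63 results, 797 alternative values were computed. Of these, 597 stayed close to the reported value, 188 moved by more than its interval or by over 1.5 times, and 12 reversed. Reversal was counted only where the reported ratio was at least 1.5-fold in either direction. Smaller ratios that crossed 1 are among the other values. Examples are the MHC class I ratio at day 0 (1.33, lowest 0.70) and the plasma cell ratio at day 14 (1.40, lowest 0.886). At day 14 the interferon-gamma-associated and type I lists kept summed ratios of 2.10 to 2.79 and 1.75 to 2.08, and Samhd1 one of 3.39 to 4.85. No paired analysis was possible because each day had 1 library. The cause of each shift was not tested beyond what the setting itself removes. The setting without cells holding any UMI of other cell types uses list genes such as Apoe, so it leaves out most of the matched cells.

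The day 14 counts of higher and lower genes, 37 and 15, were 193 and 259 at a minimum of 50 UMIs, 1557 and 1519 with no minimum, 121 and 124 without depth matching, 8 and 1 without cells holding any UMI of other cell types, and 2 and 0 after thinning to 1000 UMIs. Each of these settings also changes how many genes are counted, so the counts cannot be compared as shares. At the main setting, 37 and 15 were 2.39% and 0.97% of 1547 genes at day 14, and 110 genes were counted at day 0. The day 14 lower count was 4 with 1 matched cell, 38 with 4, 5 with 5 or more rule-gene UMIs and 7 without cells of high UMI number. The day 0 counts, 0 and 0, were 19 and 30 at 50 UMIs, 1792 and 1096 with no minimum, 640 and 834 without matching, 1 and 1 with 1 matched cell and 3 and 1 with 4. With 5 or more rule-gene UMIs the day 0 higher count was 1, and the lower count was 3 with TMM factors, 2 with median-of-ratios factors and 1 when scaled by all UMIs.

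The shares at day 0 and day 14 were 0.184% and 3.45% with 5 or more rule-gene UMIs and 0.0928% and 2.07% after thinning, and the day 0 share was 0.224% without cells of high UMI number and 0.135% without cells holding UMIs of other cell types.

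The day 14 summed ratios of the interferon-gamma-associated, type I and MHC class I lists were 2.5, 2.08 and 1.52 with 5 or more rule-gene UMIs and 2.79, 2.00 and 1.40 after thinning. The first 2 were 2.44 and 2.04 without cells of high UMI number and 2.33 and 2.03 without cells holding UMIs of other cell types, and without matching type I was 1.75 and MHC class I 1.36.

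At day 0 the interferon-gamma-associated ratio was 2.53 with 4 matched cells, 2.66 after thinning, 1.58 without cells of high UMI number and 0.74 without cells holding UMIs of other cell types, where type I was 0.89 and the B-1 list 0.99. The B-1 list was 0.998 after thinning. The day 0 cell cycle ratio was 2.21 without matching, and the germinal center ratio was 2.00 without cells of high UMI number, 2.00 after thinning and 1.51 without plasma-like and germinal center-like cells. Between days, the interferon-gamma-associated and type I ratios in interferon-high cells were 1.42 and 1.501 with TMM factors, 1.41 and 1.48 with median-of-ratios factors and 1.496 and 0.67 without cells of high UMI number, and the first was 1.82 without cells holding UMIs of other cell types. After thinning, Tceal9 stood at 1.005, Kdm5a at 1.12, Elavl1 at 1.21 and Myh9 at 1.28.

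The settings without plasma-like and germinal center-like cells and without cells holding a UMI of 25 markers that B cells lack were chosen after seeing the data; in the latter, 36 genes were higher and 13 lower at day 14. The 12 matched cells at day 0 limit every value there.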
